A study of Mus musculus with 8 samples.

Results

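The nuclear hormone receptors are transcription factors that are switched by small lipophilic ligands, and 46 receptor genes of the mouse were followed here in B cells from bone marrow. They were chosen by name, from a list of symbols looked up by Ensembl identifier in the deposited count table, and the rule uses no measured value. All 46 were found among the 54532 genes of the table, and 27 of them passed edgeR's filter on low counts, among 15305 genes of the whole table. RNA-seq was done on 3 libraries from sham-operated mice (Sham) and 3 from ovariectomized mice (OVX), in which the ovaries are removed to take away the main source of estrogen. The B cells of both groups were sorted from marrow with magnetic beads. For these libraries the labels give the cell type and the operation, and no age, strain or genotype. A ChIP-seq library against HIF-1α and its input were not analysed here. Nothing in the labels says that each library came from its own mouse, so the p-values measure the spread between these libraries, which may be technical. Between 23838775 and 33136701 reads were counted per library. Levels are given in CPM, reads on a gene brought to a common library total with edgeR's TMM factors. Ebf1, a transcription factor that specifies the B lineage, was present in every library, at 382 to 521 CPM in Sham and 550 to 595 in OVX. A list of 12 B cell genes, Ebf1 among them, held 1.08% to 1.21% of counts, and 12 neutrophil genes held 0.106% to 0.893%. Which cells in the libraries the receptor reads came from was not tested.

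Members of this family share a DNA-binding domain of paired zinc fingers and a ligand-binding domain that exchanges corepressors for coactivators when ligand is bound. Steroid receptors act largely as homodimers and are held by heat shock chaperones until hormone arrives, whereas the receptors for retinoids, thyroid hormone, vitamin D, oxysterols and fatty acids sit on DNA as partners of a retinoid X receptor. Others are orphans without a settled natural ligand, or are switched by their own abundance. Estrogen restrains B lymphopoiesis in mouse marrow, and glucocorticoids deplete precursor B cells.

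The first question was which receptors these B cells express. Of the 27 receptors that passed the filter, 21 had at least 1 CPM in every library, as had 12147 of the 15305 genes tested, and 6 were under 1 CPM in at least 1 library. The remaining 19 had too few reads to be tested. Among the receptors that passed, Vdr had the fewest reads, 94 over the 6 libraries, and among those that did not, Nr1i3 had the most, 17. The 27 include estrogen, progesterone, glucocorticoid and mineralocorticoid receptors, retinoic acid and retinoid X receptors, thyroid hormone and vitamin D receptors, liver X receptors, PPARs and the circadian REV-ERBs, and none of the bile acid and xenobiotic receptors. Reads per gene grow with transcript length, and lengths were not used here, so receptors were not ranked against each other by level.

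No read at all was counted in any library for Rxrg, the third retinoid X receptor, Nr5a1, the steroidogenic factor of gonad and adrenal, Nr1i2, the pregnane X receptor, Nr2e1, a receptor of neural stem cells, or Hnf4g of gut and kidney. A count of 0 allows a level of up to 0.0905 to 0.126 CPM, depending on the library (3 reads of its total, for counting error only). A further 12 receptors had between 1 and 3 reads in their highest library. They were Esr2, Rarb, Ppara, Rorb, Hnf4a, Nr2e3, Nr2f1, Esrrg and Nr5a2, the bile acid receptor Nr1h4, and the receptors Nr0b1 and Nr0b2, which lack a DNA-binding domain. Nr1i3, the constitutive androstane receptor, reached 6 reads in Sham replicate 2, and Nr2f2, a COUP transcription factor of stroma and endothelium, reached 8 reads in OVX replicate 3 and 2 or fewer in the other libraries. The plot of reads per library shows the wide gap between the tested receptors and the rest.

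**Figure D1:**
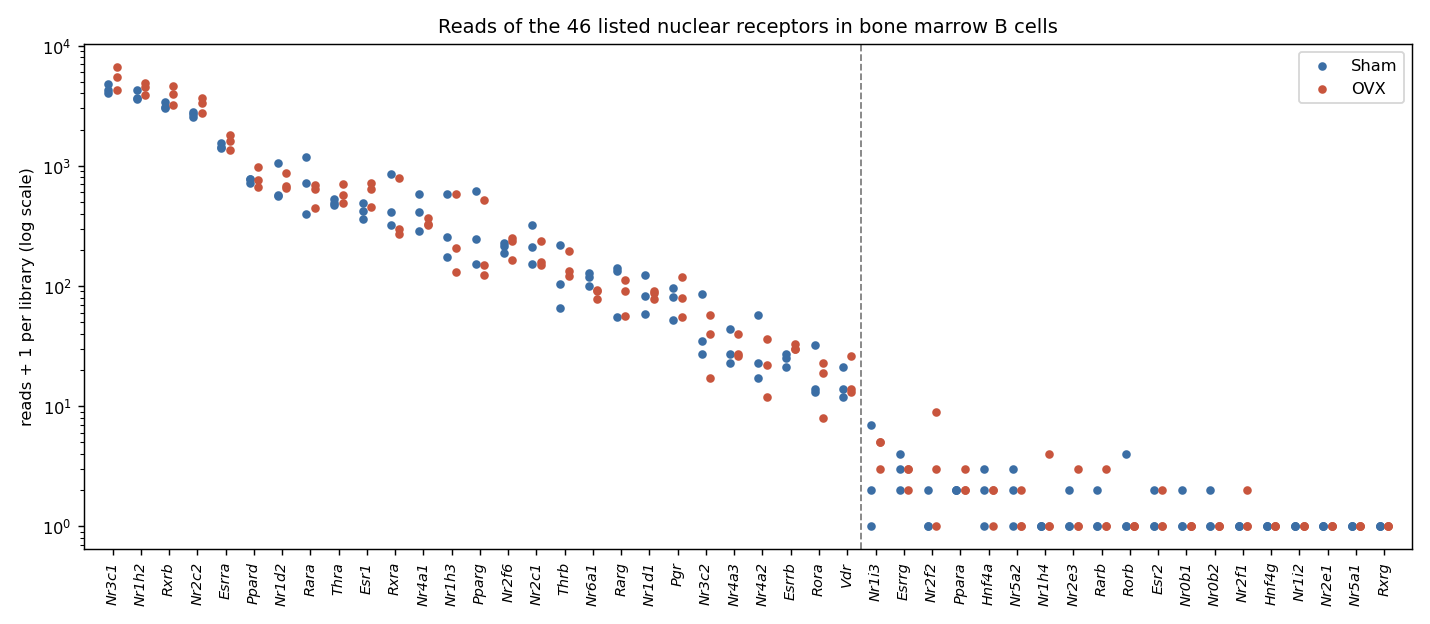
Reads plus 1 on a log scale for each of the 46 receptors, with 1 point per library (blue, 3 Sham; red, 3 OVX), ordered by summed reads, which depend on transcript length as well as level. The dashed line divides the 27 receptors that passed the filter, with at least 94 reads in all, from the 19 that did not, with at most 17.

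The second question was whether receptor transcripts differed between OVX and Sham. None of the 27 reached the call, which asked for a fold of at least 1.6 and an adjusted p-value under 0.05 (edgeR's quasi-likelihood test, Benjamini-Hochberg over all genes). The share of all genes called was 0.0%, and the lowest adjusted p-value was 0.811. DESeq2 and limma-voom called none of the receptors either. With each of these 3 tools 1 receptor, Nr6a1, had an unadjusted p-value under 0.05, where 3.75% of all genes tested did so in edgeR. Nr6a1 was also the only tested receptor whose groups did not overlap, against 8.44% of all genes tested. The fitted log2 fold change (OVX minus Sham) was above 0 for 10 receptors and below 0 for 17, from -0.71 for Nr4a2 to 0.33 for Esr1. Its median was -0.13, beside -0.008 for all genes tested, of which 48.2% lay above 0. This lean rested on Sham replicate 2: with that library left out 16 receptors were above 0 and 11 below, with a median of 0.07. With libraries scaled on 12 B cell genes, which shifted all genes by -0.08 at the median, 5 were above 0 and 22 below. In counts simulated from these libraries, 200 genes were given a change. The test found 38 of them when the change was 1.6-fold, 103 when it was 2-fold and 154 when it was 4-fold. A receptor change of any of these sizes could therefore have been missed, and 1.6-fold is also the least fold that a call asks for. In bulk RNA of this kind, fewer cells of a type and less RNA per cell cannot be told apart.

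The estrogen receptors were unequal in marrow B cells. Esr1, which encodes estrogen receptor α, had 490, 417 and 357 reads in the 3 Sham libraries, in the order of their replicate numbers, and 453, 638 and 714 in the 3 OVX libraries. Esr2, which encodes estrogen receptor β, had 1 read in Sham replicate 3 and 1 in OVX replicate 1 and none elsewhere. The promoters of this pair are shown because 1 of the genes is read in every library and the other hardly at all, and that of Nr6a1 because it was the receptor whose groups were apart. They are the RefSeq windows of 250 bases before to 50 after an annotated start, on GRCm38.p6, 5′ to 3′ on the gene's strand. Esr1 has a start at chr10:4611739-4612038 (+ strand) and another at chr10:4709908-4710207 (+ strand), that of Esr2 lies at chr12:76177210-76177509 (- strand), and the first of Nr6a1 at chr2:38926412-38926711 (- strand). Capitals mark the core of the hypoxia response element that HIF proteins bind, ACGTG or GCGTG on either strand.
Esr1 first start: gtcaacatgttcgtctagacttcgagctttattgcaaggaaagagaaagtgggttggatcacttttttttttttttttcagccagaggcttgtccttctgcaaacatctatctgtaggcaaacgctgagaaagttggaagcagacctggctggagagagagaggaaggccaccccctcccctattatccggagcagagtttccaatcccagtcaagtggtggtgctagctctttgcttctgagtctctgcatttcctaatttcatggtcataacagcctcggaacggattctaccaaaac
Esr1 second start: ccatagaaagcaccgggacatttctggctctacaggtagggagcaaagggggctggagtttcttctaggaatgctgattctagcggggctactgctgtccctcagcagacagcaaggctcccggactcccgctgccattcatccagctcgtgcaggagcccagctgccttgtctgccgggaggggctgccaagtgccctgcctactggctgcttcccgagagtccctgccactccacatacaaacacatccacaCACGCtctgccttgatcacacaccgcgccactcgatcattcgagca
Esr2: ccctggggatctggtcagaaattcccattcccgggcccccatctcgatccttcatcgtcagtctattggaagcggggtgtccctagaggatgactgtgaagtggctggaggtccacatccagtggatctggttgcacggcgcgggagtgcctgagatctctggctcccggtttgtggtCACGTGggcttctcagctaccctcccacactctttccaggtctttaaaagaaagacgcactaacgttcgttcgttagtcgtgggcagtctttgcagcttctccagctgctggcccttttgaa
Nr6a1 first start: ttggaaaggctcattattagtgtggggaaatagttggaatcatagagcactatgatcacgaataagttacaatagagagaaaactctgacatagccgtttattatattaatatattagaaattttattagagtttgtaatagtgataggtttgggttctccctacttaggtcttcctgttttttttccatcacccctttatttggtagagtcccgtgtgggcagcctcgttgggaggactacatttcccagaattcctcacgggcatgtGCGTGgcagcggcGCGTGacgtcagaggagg
The core was absent from the first Esr1 window and present once in the second. In Esr2 it lay on both strands of a palindrome, giving 2 overlapping matches, and in the first window of Nr6a1 it stood 2 times near the start, and a second window of Nr6a1, not printed, held none. None of the 4 windows held the palindromic estrogen response element searched as GGTCANNNTGACC.

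In level, Esr1 had 20.7, 14.7 and 14.4 CPM in Sham and 18.5, 22.5 and 21.6 CPM in OVX, given in replicate order here and below. Sham replicates 2 and 3 were the low libraries, and Sham replicate 1 lay among the OVX libraries, so the groups overlapped. The mean level was 16.6 ± 3.56 CPM for Sham and 20.9 ± 2.14 CPM for OVX (SD, n = 3). The log2 fold change was 0.33 (standard error 0.17, 95% interval -0.07 to 0.74, adjusted p = 0.811 in edgeR's quasi-likelihood test), an OVX to Sham ratio between 0.953 and 1.66. It lay between 0.23 and 0.52 when each library was left out in turn, the highest value being that without Sham replicate 1. The libraries also differed in transcripts of early B cells. Together 8 genes of pro-B and pre-B cells, among them Dntt, Rag1 and Il7r, held 0.276%, 0.148% and 0.182% of the Sham counts and 0.219%, 0.278% and 0.292% of the OVX counts. The 4 libraries with the most Esr1 were the 4 with the highest share of these genes, and 7 of the 8 genes had their lowest libraries in Sham replicates 2 and 3, as Esr1 had. None of the 8 was at 0. Their part in the Esr1 values was not tested.

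Nr6a1, the germ cell nuclear factor, is an orphan receptor known from the embryo and the testis. The gene lies at chr2:38723369-38926461 on GRCm38.p6. Its reads were 99, 117 and 126 in Sham and 77, 89 and 92 in OVX, or 4.18, 4.12 and 5.07 CPM against 3.14, 3.14 and 2.79 CPM. The highest OVX library was below the lowest Sham library (p = 0.1 in a two-sided exact permutation test, which can go no lower with 3 against 3). The mean level was 4.46 ± 0.532 CPM for Sham and 3.02 ± 0.204 CPM for OVX (SD, n = 3). The log2 fold change was -0.56 (standard error 0.19, 95% interval -1.02 to -0.11), with an unadjusted p of 0.0223 and an adjusted p of 0.811 in edgeR's quasi-likelihood test. The difference is therefore not a call. It was between -0.62 and -0.47 with each library left out, and the unadjusted p in edgeR's quasi-likelihood test was 0.0737 once Sham replicate 3 was left out and 0.0714 once OVX replicate 3 was.

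The other steroid receptors include those with the most and some of the fewest reads. Nr3c1, the glucocorticoid receptor, stood at 179, 170 and 162 CPM in Sham replicates 1 to 3 and at 174, 193 and 201 CPM in OVX replicates 1 to 3. OVX replicates 2 and 3 were the highest and OVX replicate 1 lay within Sham, and the interval of the OVX to Sham ratio was narrow, 0.978 to 1.26 (log2 fold change 0.15, standard error 0.08). Nr3c2, the mineralocorticoid receptor, was low and scattered, with 1.10, 2.99 and 1.37 CPM in Sham and 2.28, 1.38 and 0.484 CPM in OVX. Its highest library was Sham replicate 2 and its lowest OVX replicate 3, and the groups overlapped (log2 fold change -0.42, standard error 0.60). Pgr, the progesterone receptor and a textbook estrogen target, had 2.15, 3.38 and 3.22 CPM in Sham and 4.77, 1.91 and 2.39 CPM in OVX. The OVX libraries held both its highest and its lowest value, and the log2 fold change was 0.04 (standard error 0.38). The estrogen-related orphan receptors do not bind estrogen. Of these, Esrra, a regulator of mitochondrial genes, was even across the libraries, with 59.5, 54.6 and 57.7 CPM in Sham and 54.6, 56.3 and 55.0 CPM in OVX (log2 fold change -0.05, standard error 0.07). Esrrb, known from pluripotent cells, had 0.844, 0.845 and 1.05 CPM in Sham and 1.30, 1.02 and 0.878 CPM in OVX, with overlapping groups (log2 fold change 0.22, standard error 0.30).

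**Figure D2:**
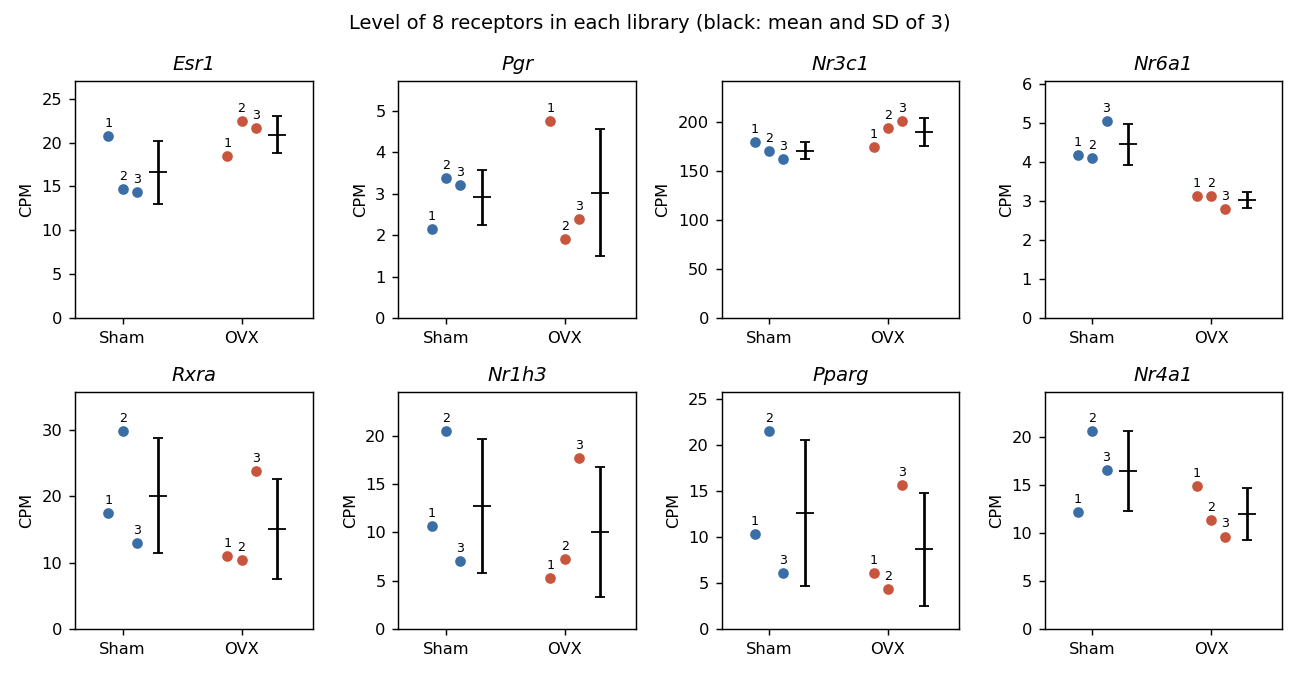
Level in CPM of 8 receptors in each library, numbered by replicate (blue, Sham; red, OVX), with the mean and SD of 3 libraries in black and each axis starting at 0. The groups are apart for Nr6a1, at 2.79 to 3.14 CPM in OVX and 4.12 to 5.07 in Sham, and overlap for the other 7, where Rxra, Nr1h3 and Pparg peak in Sham replicate 2 and OVX replicate 3.

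The shared partner of many receptors was present in 2 forms, which varied unequally. Rxrb, the retinoid X receptor β, had 131, 120 and 120 CPM in Sham replicates 1 to 3 and 131, 140 and 140 CPM in OVX replicates 1 to 3. Sham replicate 1 and OVX replicate 1 were level, and the log2 fold change was 0.14 (standard error 0.07, 95% interval -0.01 to 0.30, unadjusted p = 0.0652 from edgeR's quasi-likelihood test). Rxra, the retinoid X receptor α, ranged over 2.85-fold, with 17.5, 29.8 and 13.0 CPM in Sham and 11, 10.4 and 23.8 CPM in OVX. Its high libraries were Sham replicate 2 and OVX replicate 3, 1 in each group, and the log2 fold change was -0.41 (standard error 0.41). It was -0.91 without OVX replicate 3, -0.01 without Sham replicate 2 and -0.51 without both.

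The oxysterol and fatty acid receptors showed the same kinds of pattern. Nr1h2, the broadly expressed liver X receptor β, had 154, 150 and 144 CPM in Sham and 158, 158 and 148 CPM in OVX (log2 fold change 0.05, standard error 0.06, ratio 0.932 to 1.14). Nr1h3, the liver X receptor α of macrophages and liver, had 10.7, 20.5 and 7 CPM in Sham and 5.25, 7.20 and 17.7 CPM in OVX (log2 fold change -0.34, standard error 0.53). It again peaked in Sham replicate 2 and OVX replicate 3, and the groups overlapped. Ppard, the ubiquitous PPARδ, was even, with 30.0, 27.5 and 31.2 CPM in Sham and 26.8, 26.6 and 29.6 CPM in OVX (log2 fold change -0.09, standard error 0.09). Pparg, which encodes PPARγ of adipocytes and macrophages, had 10.3, 21.5 and 6.12 CPM in Sham and 6.03, 4.31 and 15.7 CPM in OVX, a range of 4.99-fold. Its high libraries were once more Sham replicate 2 and OVX replicate 3 (log2 fold change -0.54, standard error 0.59, from -1.29 without OVX replicate 3 to 0.09 without Sham replicate 2).

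In all, 6 tested receptors, 22.2%, had their highest levels in Sham replicate 2 and OVX replicate 3, beside 8.67% of all genes tested. They were Pparg, Nr1h3, Rxra, Thrb, Nr4a3 and Vdr. Of 12 genes of monocytes and macrophages, 9 did the same, among them C1qa, at 222 CPM in Sham replicate 2, 187 in OVX replicate 3 and 55.6 to 103 in the other libraries. These 12 genes held 0.129%, 0.258% and 0.181% of the Sham counts and 0.113%, 0.0716% and 0.186% of the OVX counts, and none was at 0. Ly6c2, Ccr2 and Lyz2 departed from the pattern and were highest in Sham replicate 3. The pattern was not particular to macrophage genes, as 4 of 8 erythroid genes and 2 of 5 endothelial genes tested had it. Sham replicate 2 was the highest library for 12 of the 27 receptors, 44.4%, beside 25.7% of all genes tested. It also had the highest share of 6 mature B cell genes, 0.256%, against 0.102% to 0.138% in the other libraries, and all 6 peaked there. So did 8 of the 12 macrophage genes, 7 of 10 immediate early genes and 5 of 8 erythroid genes. The part of these transcripts in the receptor levels was not tested. Another 3 receptors, Esr1, Nr3c1 and Rxrb, 11.1%, were lowest in Sham replicates 2 and 3, beside 17.5% of all genes tested.

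**Figure D3:**
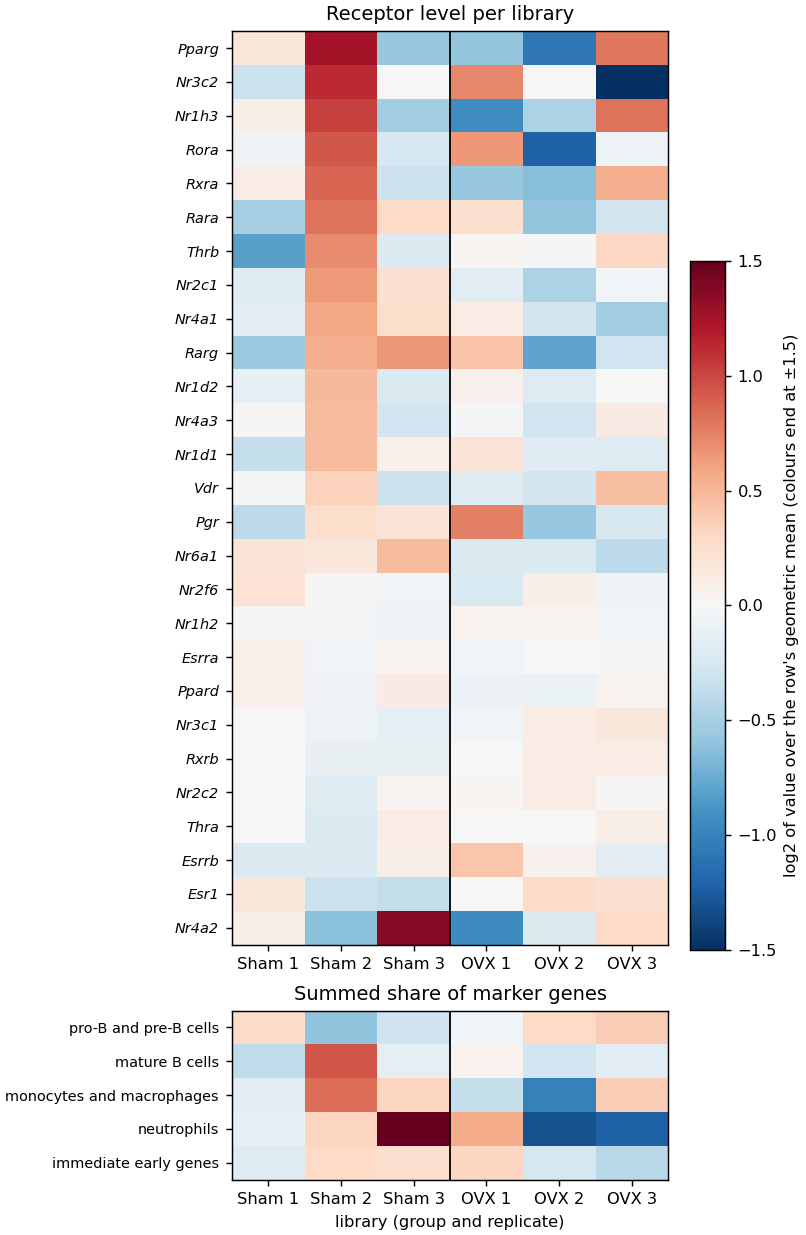
Log2 of each value over its row's geometric mean in the 6 libraries, for the CPM of the 27 tested receptors (above) and the summed share of counts of 5 marker lists (below), red above and blue below the mean, with a line between Sham and OVX. Sham replicate 2 is the highest library for 12 receptors and for the mature B cell and macrophage lists, and Sham replicates 2 and 3 are lowest for Esr1 and for the pro-B and pre-B list.

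Receptors for retinoic acid also varied more between libraries than between groups. Rara, the retinoic acid receptor α of blood cells, had 16.8, 41.7 and 29.0 CPM in Sham and 28.0, 15.7 and 19.5 CPM in OVX (log2 fold change -0.47, standard error 0.34). Rarg, its γ relative, had 2.28, 4.90 and 5.31 CPM in Sham and 4.52, 1.94 and 2.72 CPM in OVX (log2 fold change -0.45, standard error 0.42). Both were low in Sham replicate 1 and in OVX replicates 2 and 3, so that the groups overlapped. The log2 fold change of Rara ran from -0.75, when Sham replicate 1 was dropped, to -0.12, when Sham replicate 2 was. The span of Rara shares 4984 bases with Gm46294, so reads there cannot be assigned to either.

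Thra, the thyroid hormone receptor α, was even, with 19.9, 17.3 and 21.4 CPM in Sham and 19.8, 20 and 21.2 CPM in OVX (log2 fold change 0.06, standard error 0.12). Its annotated span shares 1075 bases with that of Nr1d1, and since the strand setting of the counting is not given in the sources used here, reads of that stretch cannot be assigned to either. Thrb, the β form, had 2.70, 7.75 and 4.10 CPM in Sham and 4.85, 4.66 and 5.87 CPM in OVX. Both its highest and its lowest library were Sham (log2 fold change 0.08, standard error 0.37). Its span shares 1663 bases with a neighbouring annotated locus. Vdr, the vitamin D receptor, had few reads, with 13, 20 and 11 reads in Sham and 12, 13 and 25 in OVX. Its log2 fold change of 0.01 had a 95% interval from -0.88 to 0.90, an OVX to Sham ratio between 0.544 and 1.87.

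The REV-ERBs and RORs compete for the same elements in clock genes. Nr1d1, which encodes REV-ERBα, had 2.41, 4.30 and 3.26 CPM in Sham and 3.54, 2.72 and 2.72 CPM in OVX (log2 fold change -0.15, standard error 0.27). Nr1d2, for REV-ERBβ, had 24.1, 36.8 and 22.7 CPM in Sham and 27.6, 23.0 and 26.2 CPM in OVX (log2 fold change -0.12, standard error 0.19). Both were highest in Sham replicate 2, and their OVX libraries lay within the Sham range. Rora, the activating counterpart, had 0.549, 1.09 and 0.483 CPM in Sham and 0.896, 0.247 and 0.545 CPM in OVX, from 31 reads or fewer in a library (log2 fold change -0.35, standard error 0.55).

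The Nr4a receptors are immediate early genes that antigen receptor signals and cell handling induce within minutes to hours. Nr4a1, or Nur77, had 12.2, 20.6 and 16.6 CPM in Sham and 14.9, 11.4 and 9.63 CPM in OVX (log2 fold change -0.46, standard error 0.24, 95% interval -1.02 to 0.10). OVX replicates 2 and 3 were its lowest libraries, and Sham replicate 1 lay below OVX replicate 1. A list of 10 other immediate early genes held 0.0532%, 0.075% and 0.072% of the Sham counts and 0.076%, 0.0504% and 0.0456% of the OVX counts. The 3 libraries with the least Nr4a1, OVX replicates 2 and 3 and Sham replicate 1, were the 3 with the lowest share of this list, and its part in the Nr4a1 values was not tested. Nr4a2, or Nurr1, had 0.929, 0.564 and 2.25 CPM in Sham and 0.448, 0.741 and 1.06 CPM in OVX. Its fold change was the lowest of the receptors and among the least certain (log2 fold change -0.71, standard error 0.57), and 56 of its 161 reads were in Sham replicate 3. Its span shares 670 bases with another annotated locus. Nr4a3, or Nor1, had 1.10, 1.51 and 0.885 CPM in Sham and 1.06, 0.882 and 1.18 CPM in OVX (log2 fold change -0.17, standard error 0.32).

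The remaining orphans include Nr2c1 and Nr2c2, the testicular receptors TR2 and TR4, which bind each other and repress embryonic globin genes. Nr2c2 was even, with 108, 94.9 and 112 CPM in Sham and 111, 117 and 110 CPM in OVX (log2 fold change 0.10, standard error 0.08), although its span shares 3547 bases with Mrps25. Nr2c1 had 6.42, 11.3 and 8.49 CPM in Sham and 6.44, 5.22 and 7.08 CPM in OVX (log2 fold change -0.48, standard error 0.24, 95% interval -1.05 to 0.08). Its highest libraries were Sham replicates 2 and 3, and Sham replicate 1 lay among the OVX libraries. Nr2f6, a COUP-related receptor that restrains lymphocyte activation, had 9.08, 7.93 and 7.56 CPM in Sham and 6.64, 8.29 and 7.54 CPM in OVX (log2 fold change -0.13, standard error 0.16).

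The size of the intervals divided the family. For Nr3c1, Nr1h2, Rxrb, Nr2c2 and Esrra, each with 9146 reads or more in all, the OVX to Sham ratio lay between 0.867 and 1.26 at the ends of every 95% interval. For 15 of the 27 receptors the highest and lowest library were within 2-fold. At the other end, the intervals of Nr3c2, Nr4a2 and Pparg reached from under 0.3 to 1.55 or more. Leaving out Sham replicate 1 raised the number of receptors at an unadjusted p under 0.05 (edgeR's quasi-likelihood test) from 1 to 6, while the share of all genes tested went from 3.75% to 16.8%. The 6 were Rara, Rxrb, Nr2c1, Esr1, Nr4a1 and Nr6a1, and the adjusted p-value stayed at 0.273 or more. Without Sham replicate 3 no receptor was at that level.

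**Figure D4:**
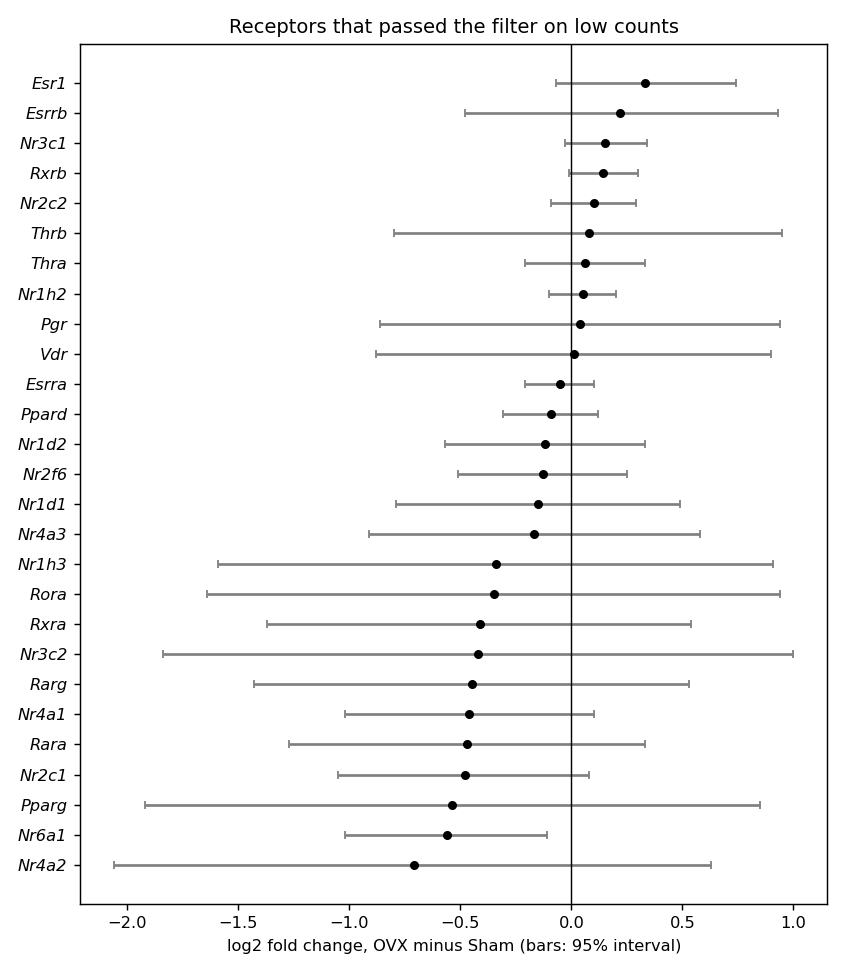
Fitted log2 fold change (OVX minus Sham, edgeR) of the 27 tested receptors, ordered by value, with 95% intervals over 3 libraries per group. Points run from 0.33 (Esr1) to -0.71 (Nr4a2), and the interval of Nr6a1, from -1.02 to -0.11, is the only one that leaves out 0, before any adjustment for the number of genes tested.

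The machinery around the receptors was read from 11 lists of coregulators, chaperones, target genes and ligand enzymes. None of the genes in them was called. Their counts at an unadjusted p under 0.05 and the genes whose groups are apart stand beside the 3.75% and 8.44% of all genes tested given above. Of 15 coactivators tested, 1 was at an unadjusted p under 0.05, Crebbp, the CBP acetyltransferase, with 127, 125 and 134 CPM in Sham and 140, 152 and 139 CPM in OVX (log2 fold change 0.16, standard error 0.07), and the median of the list was 0.01. All OVX libraries of Crebbp lay above all Sham libraries. Among 10 corepressors tested (median 0.06) the lowest p was that of Sin3a, a histone deacetylase scaffold, at a log2 fold change of 0.12 (standard error 0.06). Among 10 chaperones of steroid receptors (median 0.03) it was that of Ppid, cyclophilin 40, at -0.08 (standard error 0.06).

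Target genes of the hormones were counted in the same way. Of 12 glucocorticoid-induced genes tested, Sgk1, a kinase induced by glucocorticoids, was at an unadjusted p of 0.0378 in edgeR's quasi-likelihood test, with 93.7, 72.5 and 85.5 CPM in Sham and 95.5, 100 and 104 CPM in OVX (log2 fold change 0.25, standard error 0.10), and the median of the list was -0.03. Its OVX libraries were all above its Sham libraries, the nearest by 95.5 against 93.7. The 12 estrogen-responsive genes tested include Pgr and Rara, already counted among the 27 receptors, so this list is not separate from them. Of the 12 genes 5 were above 0 and 7 below, with a median of -0.13, and none was under 0.05. That median was 0.065 when Sham replicate 2 was dropped and -0.256 when Sham replicate 1 was. The lowest p among them, 0.0648 from edgeR's quasi-likelihood test, was that of Cxcl12, the chemokine that holds B cell precursors in marrow. Cxcl12 had 18.7, 12 and 15.2 CPM in Sham and 21.1, 15.7 and 45.6 CPM in OVX, and OVX replicate 3 was far above the rest (log2 fold change 0.84, standard error 0.39). Cxcl12 is also made by stromal cells. A list of 9 genes of stroma and osteoblasts, Cxcl12 among them, held 0.00684% of counts in OVX replicate 3 and 0.00248% to 0.00332% in the other libraries. In OVX replicate 3 Cxcl12 itself had 1508 reads and Kitl, the next gene of that list, 260. Cxcl12 therefore makes up much of the peak of the list. Other genes of the list were highest there too. Col1a2 had 5.48 CPM in OVX replicate 3 and 1.13 to 3.10 in the other libraries. Adipoq had 3.24 against 1.06 to 1.94, and Lepr 2.51 against 0.635 to 1.67. Pdgfrb and, narrowly, Pdgfra were also highest there, whereas Kitl, Col1a1 and Bglap were highest in a Sham library. The part of other stromal transcripts in the Cxcl12 values was not tested.

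Of 16 clock genes tested, 1 was at an unadjusted p under 0.05. This was Bmal1, the clock activator that REV-ERBs repress and RORs activate, with 156, 119 and 121 CPM in Sham and 161, 195 and 189 CPM in OVX (log2 fold change 0.46, standard error 0.13, unadjusted p = 0.00748 and adjusted p = 0.811 in edgeR's quasi-likelihood test). All its OVX libraries lay above all Sham libraries, the nearest by 161 against 156. Sham replicates 2 and 3 were its lowest libraries, as for Esr1 and the pro-B and pre-B genes, whose part in it was not tested. The hours at which the mice were sampled are not given in the labels. The clock list as a whole had a median of -0.09, with 7 genes above 0 and 9 below, and the median changed sign to 0.017 when Sham replicate 3 was dropped. It was -0.172 when Sham replicate 1 was dropped, and -0.003 and -0.024 when Sham replicate 2 or OVX replicate 2 was.

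All 12 target genes of the liver X receptors were tested. They had 2 values above 0 and 10 below, with a median of -0.12 and none under an unadjusted p of 0.05. The lowest p was that of Pltp, the phospholipid transfer protein, with 6.88, 19.9 and 13.0 CPM in Sham and 8.68, 5.26 and 8.51 CPM in OVX (log2 fold change -0.83, standard error 0.39). Sham replicate 2 was the highest library of Pltp. So it was for Nr1h3, 8 of the 12 macrophage genes, all 6 mature B cell genes and 25.7% of all genes tested. The same held for 7 of 10 immediate early genes and 5 of 8 erythroid genes. In OVX replicate 3, where Nr1h3 was also high at 17.7 CPM, Pltp was not, at 8.51 CPM. Some genes of the list did have their highest levels in Sham replicate 2 and OVX replicate 3. These were Apoe, at 576 and 481 CPM, Mertk, at 68.0 and 48.4 CPM, and Abca1, at 194 and 128 CPM. The rest of the list did not. The median of the list was -0.015 without Sham replicate 2 and -0.238 without Sham replicate 1. Of 12 PPAR target genes tested none was under 0.05 (median 0.06), and Hadha, a β-oxidation enzyme, had the lowest p at a log2 fold change of 0.07 (standard error 0.06). Of 10 retinoic acid targets 3 could be tested (median 0.10), and none was under 0.05.

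Of 9 genes listed as targets of thyroid hormone or vitamin D, 4 could be tested (median -0.04). The lowest p was that of Camp, at a log2 fold change of -1.24 (standard error 0.56). Whether Camp answers to either hormone in mouse cells was not tested, so it is no readout of them here. Camp encodes cathelicidin, a granule protein of neutrophils. It had 682 CPM in Sham replicate 3 and 94.0 to 302 CPM in the other libraries, and the 12 neutrophil genes, Camp among them, held 0.893% of counts in that library and 0.106% to 0.387% in the others. Their part in it was not tested. Of 15 ligand enzymes tested (median 0.00), Aldh1a1, a retinaldehyde dehydrogenase that makes retinoic acid, was at an unadjusted p of 0.035 in edgeR's quasi-likelihood test. It had 2.83, 3.63 and 7.76 CPM in Sham and 3.10, 0.847 and 1.15 CPM in OVX (log2 fold change -1.49, standard error 0.58), and the groups overlapped. Sham replicate 3 was its highest library and OVX replicates 2 and 3 its lowest. The same held for the share of the neutrophil genes and for that of the basophil, mast cell and eosinophil genes. The latter was 0.0142% in Sham replicate 3, and 0.00183% and 0.00216% in OVX replicates 2 and 3. The part of these transcripts in the Aldh1a1 values was not tested.

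The promoters of receptors that did and did not pass the filter were compared in composition, as a description with no test. RefSeq windows of 300 bases were found for 42 of the 46 genes, and not for Thra, Hnf4g, Nr3c1 or Nr5a1. For a gene with several windows only the first listed was used, so the shares depend on that order. The median GC content was 65.7% for the 25 receptors that passed the filter and have a window, 54.0% for the 17 others and 52.7% for all 27025 genes with one. The HIF core ACGTG or GCGTG, on either strand, was found in 18 of the 25 windows, 72.0%, and in 7 of the 17, 41.2%, beside 43.8% of all genes. GC content moves with this share, and its part in it was not tested. The window of Esr2, which had 2 reads in all, held the core. The first window of Esr1, the one counted here, did not, though its second window did. The element AGGTCA that many receptors contact, on either strand, was in 16.7% of the 42 windows and 16.0% of all, and GGTCANNNTGACC in none of the 42 and 0.0666% of all. A match is a string of letters in a window and no measure of binding.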

How the data were processed

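RNA-seq counts of bone marrow B cells from 3 OVX and 3 Sham libraries were used, grouped by the sample labels. The table deposited by the authors holds unnormalized read counts by Ensembl identifier, and the submitters' processing notes name CASAVA, Bowtie 0.12.2 and mm10. The counting tool, annotation and strand setting are not given in the sources used here. The labels name Trizol and a TruSeq RNA kit. Symbols were matched to 54409 of 54532 identifiers, and positions and promoters were taken from RefSeq for GRCm38.p6. No pair of libraries was a repeat (chi-square per degree of freedom 9.46 to 74.1).

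The model was fitted with edgeR 4.0.16 under R 4.3.3: filterByExpr by group, TMM and the quasi-likelihood test over 15305 genes with Benjamini-Hochberg adjustment. The standard error is the log2 fold change over the square root of F, and levels are CPM. Genes were called at an adjusted p under 0.05 and a fold of at least 1.6. The alternatives were DESeq2 1.42.0, limma-voom (limma 3.58.1), library size only, scaling on 12 B cell genes, no filter, the replicate number as a block, each library left out, and Sham replicate 2 and OVX replicate 3 left out together. The test was checked on simulated counts: with no changed gene it called 0 of 15035. With 200 genes changed it also called unchanged genes. These were 6 beside 38 changed ones at 1.6-fold, 4 beside 103 at 2-fold and 8 beside 154 at 4-fold.

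The receptors, the 11 pathway lists and the marker lists were chosen with earlier results of these data known, and the printed promoters after the values were seen. All receptors are named. Of each pathway list the genes at an unadjusted p under 0.05 are named, or the 1 with the lowest p, and 2 results are not reported here. Reads carry no molecular identifiers.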

Additional observations from a re-analysis of the deposited data

How the results depend on the processing

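No receptor was called under any of the 13 alternatives. Of 351 values of single receptors under them, 33 changed sign, in 13 receptors. The other 14, among them Esr1, Nr6a1, Nr3c1, Rxra, Rxrb, Rara, Nr4a1 and Nr2c1, kept their sign. The number at an unadjusted p under 0.05, 1 in edgeR's quasi-likelihood test, was 2 with no filter on low counts (Nr4a1 and Nr6a1, beside 4.63% of all genes tested), 0 with a replicate block (1.35%), and 0 to 6 with libraries left out (1.48% to 16.8%). The number of receptors whose groups did not overlap was 2 to 8 with a library left out, beside 13.7% to 36.4% of all genes tested, as fewer libraries overlap less. Scaling on 12 B cell genes shifted the whole distribution by -0.08 at its median (log2) and gave -0.02 for Thra, -0.01 for Thrb, -0.03 for Nr1h2, -0.07 for Vdr and -0.02 for Pgr. Pgr was -0.08 in limma-voom and -0.05 with the replicate block, and Vdr -0.01 with library size only and -0.00 with the block. With libraries left out the log2 fold change ran from -0.05 to 0.12 for Thra, -0.21 to 0.59 for Thrb, -1.29 to 0.09 for Pparg, -0.34 to 0.14 for Nr1d1, -0.26 to 0.13 for Nr1d2, -0.83 to 0.13 for Rora, -1.03 to 0.19 for Nr1h3, -0.26 to 0.20 for Vdr, -0.98 to 0.56 for Nr3c2, -0.44 to 0.31 for Pgr, -1.41 to 0.02 for Nr4a2 and -0.34 to 0.07 for Nr4a3. Apart from the changes that follow from fewer libraries, the cause was not tested. Of 143 medians of pathway lists 10 moved by more than the spread of the libraries, 6 of them that of the clock genes, which was -0.171 with scaling on B cell genes. The median of the receptors was between -0.214 (without Sham replicate 1) and 0.07 (without Sham replicate 2), and -0.052 without both Sham replicate 2 and OVX replicate 3. Libraries with the same replicate number did not deviate together (correlations -0.41, -0.189 and -0.279 across genes, which are not independent). Whether libraries of the same number share a batch or a day was not tested. An order of the receptors by level was not run, as transcript lengths were not used here. Depth limits the 19 receptors that were not tested, none with over 8 reads in a library.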
